A study of Mus musculus with 8 samples.

Results

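The genes described here are the constitutive proteasome subunits and their assembly factors, activators and inhibitor. They were taken by name, as every listed gene named Psma, Psmb, Psmc, Psmd, Psme, Psmf or Psmg followed by a digit, leaving out pseudogenes and the inducible subunits Psmb8, Psmb9 and Psmb10. Of 14506 genes listed, 49 names matched, 3 were dropped, and 46 genes remained. Of these, 43 had a mean normalized count of at least 10 and were tested among 11174 genes. The other 3, Psma8, Psmb11 and Psme2b, were too low to test.

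RNA was measured in whole liver of 4 Rragc S74N/+ and 4 Rragc +/+ mice. The S74N allele is a whole-body knock-in made by CRISPR editing, carried on 1 allele, and it substitutes 1 amino acid of RagC, a GTPase that relays nutrient signals to the kinase complex mTORC1. Among Rragc +/+ mice, replicates 1, 2 and 3 were 3 months old and replicate 4 was 2.5 months old. Among Rragc S74N/+ mice, replicates 1 and 2 were 3 months old, replicate 3 was 2.5 months old and replicate 4 was 2 months old. Livers are named below by genotype and replicate, as +/+ 1 or S74N/+ 1. The comparison asks whether raised nutrient signaling in young animals goes with a change in the messages of the machinery that degrades proteins.

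The proteasome is the large protease that breaks down proteins tagged with ubiquitin in the cytosol and nucleus. Its barrel-shaped core, the 20S particle, stacks α rings on β rings that hold the cutting sites, and the 19S cap recognizes ubiquitin chains, unfolds the substrate and feeds it in. The transcription factor Nrf1 (gene Nfe2l1) raises the subunit genes together when proteasome activity falls short, and in liver the proteasome removes regulatory and damaged proteins beside the lysosome. In lymphoid tissue, and in other cells after interferon γ, inducible subunits replace the 3 catalytic β subunits to form the immunoproteasome.

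Each liver had between 4313076 and 6632108 reads in listed genes. Values are normalized read counts from the 3′ end of the message, so that a count does not grow with the length of the transcript. Hepatocyte markers were high in every liver, with a summed level of 221403 to 326343 in +/+ and 240896 to 440645 in S74N/+ livers for 8 markers, none of them at 0. Markers of kidney tubule were lower in S74N/+ livers, at a sum of 56.3 to 103 against 212 to 350.3 for the 4 that were listed. Only 2 of the 4 were high enough to test, and neither overlapped between groups, against 2.94% of all tested genes. The smallest adjusted limma p of the 2 was 0.0411, the only one under 0.05 among all tested genes. Whether kidney tubule cells have a part in this was not tested. Slc34a1 and Slc12a1 were at 0 in at least 1 liver. In bulk tissue, fewer cells of a type and less RNA per cell cannot be told apart.

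Promoter windows from RefSeq (GRCm38.p6), running from 250 bases before to 50 bases after the gene start, were found for 38 of the 46 genes. The core of the element that Nrf1 and its relatives bind, written TGACNNNGC and searched on both strands, was present in 6 of the 38 (15.8%), namely Psmb5, Psmb6, Psmc6, Psmd12, Psmd9 and Psme4. It was present in 16.9% of 8454 tested genes with a window, and in 13.99% of all 27025 genes with one. The CCAAT box, searched in the same way, was in 13 of 38 (34.2%), against 42.9% of the tested genes and 41.1% of all genes. Neither share was above that of tested genes, and a match of letters is no evidence of binding. The 2 catalytic subunits with the Nrf1 core are printed first. Psma2 and Psmc1, which were high in opposite sets of livers, are printed after them with their CCAAT box. Capitals mark the motif. It begins 47 bases before the start in Psmb5, 9 in Psmb6, 54 in Psma2 and 175 in Psmc1. The windows are Psmb5 at chr14:54617946-54618245 on the reverse strand, Psmb6 at chr11:70525107-70525406, Psma2 at chr13:14612992-14613291 and Psmc1 at chr12:100109952-100110251, the last 3 on the forward strand.
Psmb5: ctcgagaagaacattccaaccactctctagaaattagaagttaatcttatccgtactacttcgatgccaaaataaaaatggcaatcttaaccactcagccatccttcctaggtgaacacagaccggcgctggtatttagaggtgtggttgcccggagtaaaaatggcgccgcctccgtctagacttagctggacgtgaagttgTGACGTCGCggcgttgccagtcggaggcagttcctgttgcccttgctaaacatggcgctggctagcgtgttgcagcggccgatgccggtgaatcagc
Psmb6: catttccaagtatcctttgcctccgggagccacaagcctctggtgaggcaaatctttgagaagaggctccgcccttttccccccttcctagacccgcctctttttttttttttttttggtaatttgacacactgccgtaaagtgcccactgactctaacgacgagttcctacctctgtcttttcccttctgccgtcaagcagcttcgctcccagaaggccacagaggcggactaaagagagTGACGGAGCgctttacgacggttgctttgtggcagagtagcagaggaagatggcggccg
Psma2: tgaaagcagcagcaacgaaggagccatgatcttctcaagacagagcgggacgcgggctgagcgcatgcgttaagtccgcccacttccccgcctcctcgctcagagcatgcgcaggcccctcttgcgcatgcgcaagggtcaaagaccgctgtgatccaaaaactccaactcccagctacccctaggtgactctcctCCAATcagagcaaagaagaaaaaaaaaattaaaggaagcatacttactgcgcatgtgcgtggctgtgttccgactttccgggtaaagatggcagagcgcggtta
Psmc1: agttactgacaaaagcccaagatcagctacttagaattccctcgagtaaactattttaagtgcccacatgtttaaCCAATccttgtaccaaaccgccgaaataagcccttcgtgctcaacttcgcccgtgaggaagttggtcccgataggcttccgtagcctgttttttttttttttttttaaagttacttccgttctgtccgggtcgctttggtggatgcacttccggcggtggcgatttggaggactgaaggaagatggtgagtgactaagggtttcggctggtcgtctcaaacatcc

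All 43 tested genes were expressed in every liver, but their levels were far from equal. Mean normalized counts over the 8 livers ran from 16.9 for Psmg2 to 2287 for Psmc1, a 135-fold span, with a median of 453. The α ring ran from 45.2 (Psma5) to 1469 (Psma7) and the β ring from 40.6 (Psmb2) to 989.6 (Psmb4), although each of these subunits occupies the same number of places in the core particle. Reads of Psma5 can be shared with a pseudogene, as described below, so its level is uncertain. The 19S ATPases ran from 96.6 (Psmc5) to 2287 (Psmc1). Among the 20S assembly factors the highest was Psmg3, at 81.6. Summed over the 46 genes, the count was 23015 ± 1747 in +/+ and 21271 ± 1555 in S74N/+ livers (SD, n = 4 each), and it made up between 0.338% and 0.423% of all counts in a liver. The sums were 23919, 22887, 20625 and 24629 in +/+ livers and 19738, 20922, 23439 and 20987 in S74N/+ livers. The groups overlapped, with S74N/+ 3 higher than 2 of the 4 +/+ livers.

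**Figure D1:**
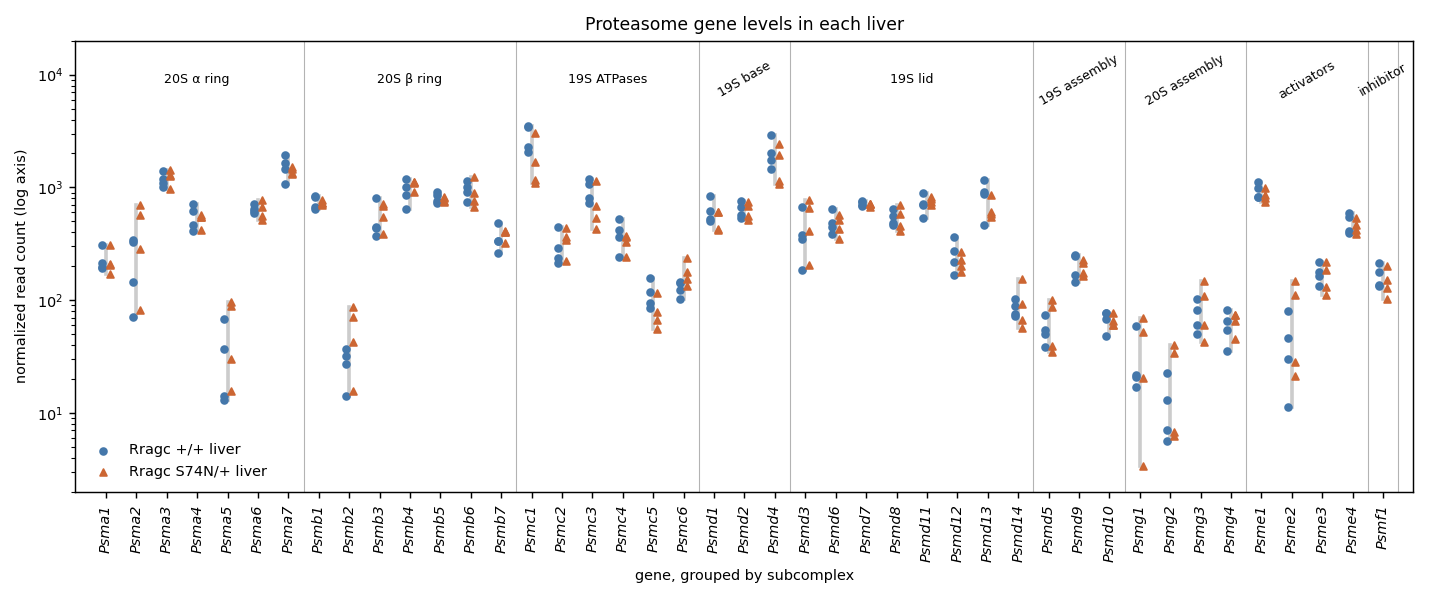
Normalized read count (vertical, log axis) of each of the 43 tested proteasome genes in each liver, grouped by subcomplex. Blue circles are the 4 Rragc +/+ livers, orange triangles the 4 Rragc S74N/+ livers and grey bars the full range. Levels run from 3.34 for Psmg1 in 1 liver to 3501 for Psmc1, and circles and triangles overlap for every gene.

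With limma, none of the 43 genes passed an adjusted p of 0.05, and the smallest adjusted p among them was 0.846. Over all tested genes 1 passed, or 0.00895%, and it was among the kidney tubule markers above. At an unadjusted p under 0.05 there was 1 member, Psmc1, lower in S74N/+ livers. That is 2.33% of the members, against 5.17% of all tested genes, of which 2.8% were lower and 2.37% higher. The log2 fold change was above 0 for 17 members and below 0 for 26, while it was above 0 for 51.3% of all tested genes. Its median was -0.03 over the members and 0.01 over all tested genes. No member had groups that did not overlap, which was the case for 2.94% of all tested genes. On the recovered reads, edgeR gave no member at an unadjusted p under 0.05 (5.53% of all genes) and DESeq2 gave Psmb2 and Psmc1 (6.04% of all genes), with none past an adjusted p of 0.05 by either tool. The share of all genes past the adjusted threshold was 0.0895% with DESeq2. With 3-month-old mice alone, limma gave 5 members at an unadjusted p under 0.05 (11.6% of members, against 5.74% of all genes). They were Psmc1, Psmc3, Psmc5 and Psmd1 (lower) and Psmb2 (higher). With age as a factor it gave Psmc1 and Psmc3 (5.66% of all genes), with age as a covariate Psmc1 (3.71%) and without the trend none (5.4%). The median standard error of a member's log2 fold change was 0.26. Even Psmc1, at a log2 fold change of -0.78, did not pass adjustment. With 4 livers a group, differences well beyond a small fraction of the level could therefore go undetected.

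**Figure D2:**
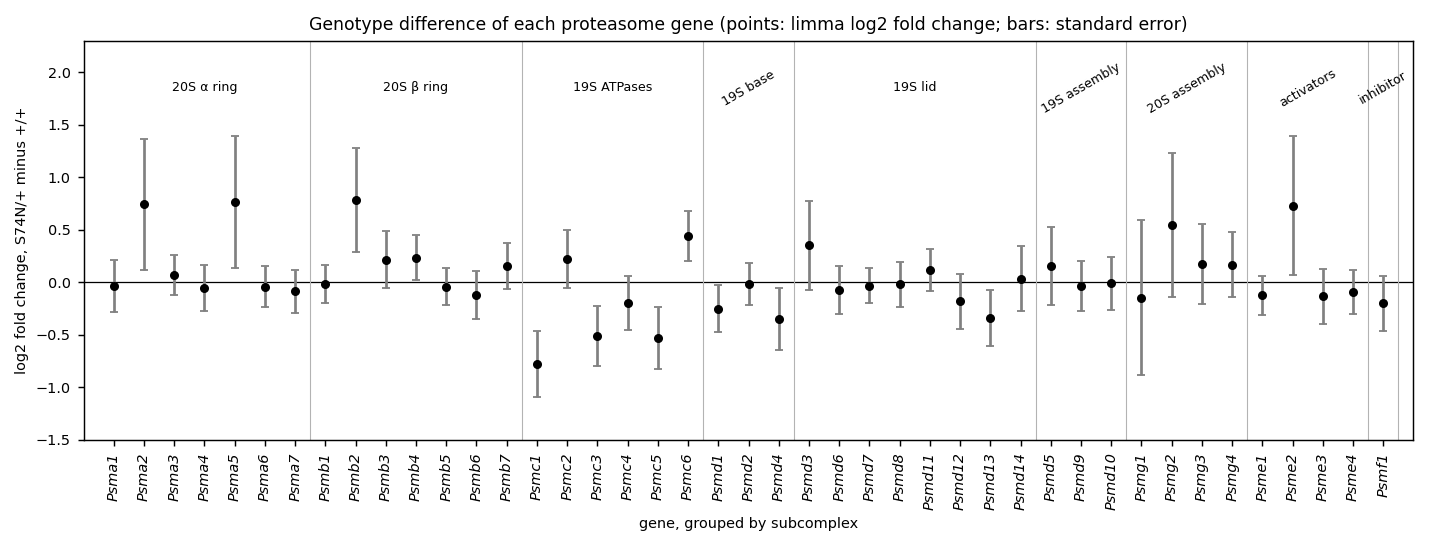
Log2 fold change of each tested proteasome gene, S74N/+ minus +/+ (vertical), on the log2(normalized count + 1) scale, with genes grouped by subcomplex. Points are limma estimates from 4 against 4 livers and bars are 1 standard error. The estimates run from -0.78 (Psmc1) to 0.78 (Psmb2), and most bars cross 0.

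In the α ring, which gates entry to the core, 3 of 7 tested genes had a positive and 4 a negative log2 fold change, with a median of -0.04, and none passed an unadjusted p of 0.05. Psma7, the most abundant, was at 1466, 1919, 1068 and 1661 in +/+ livers and 1320.3, 1346, 1523 and 1448 in S74N/+ livers. Every S74N/+ liver fell inside the +/+ range, and the log2 fold change was -0.09 (standard error, SE, 0.21). Psma5 was at 13.1, 36.5, 67.9 and 14.01 in +/+ livers and at 88.1, 30.2, 15.6 and 96.3 in S74N/+ livers. S74N/+ 1 and 4 were the highest of all livers, while +/+ 1, +/+ 4 and S74N/+ 3 were the lowest, so that the log2 fold change was 0.76 (SE 0.63, limma adjusted p = 0.846). Psma2, singled out after its values were seen, had the same order of high and low livers at a higher level. It was at 145, 341, 328 and 71.0 in +/+ livers and at 568, 284, 81.3 and 693 in S74N/+ livers, a span of 9.75-fold within a single tissue. The testis form of an α subunit, Psma8, reached at most 8.92 and was at 0 in 2 livers.

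The β ring carries the cutting sites. Of 7 tested genes 4 were above and 3 below 0, with a median of 0.15. Psmb5, the chymotrypsin-like subunit that proteasome inhibitor drugs target, was at 848, 908, 720.0 and 759 in +/+ livers and 745, 811, 824 and 749.7 in S74N/+ livers. These levels lay within 1.26-fold of each other, and the log2 fold change was -0.04 (SE 0.17). Psmb6, the caspase-like subunit, was at 1134, 907, 741 and 1017 in +/+ livers and at 753, 891, 1225 and 668 in S74N/+ livers. Its highest and its lowest liver were both S74N/+, and the log2 fold change was -0.12 (SE 0.23). Psmb7, the trypsin-like subunit, was at 333, 264, 479.5 and 332 in +/+ livers and at 414, 401, 318 and 404 in S74N/+ livers. Again the S74N/+ livers fell inside the +/+ range, with a log2 fold change of 0.15 (SE 0.22). Psmb4, which is not catalytic and joins late in the assembly of the ring, was at 919.6 ± 226 in +/+ and 1059.6 ± 100.4 in S74N/+ livers (SD, n = 4 each), which gives a log2 fold change of 0.23 (SE 0.21). Psmb2, the lowest tested gene of the ring and also not catalytic, was at 27.0, 31.8, 36.8 and 14.01 in +/+ livers and at 86.3, 42.7, 15.6 and 71.0 in S74N/+ livers. It was above every +/+ liver in 3 of 4 S74N/+ livers, but not in S74N/+ 3. Its log2 fold change of 0.78 (SE 0.50) was the highest of all members (limma adjusted p = 0.846, and DESeq2 unadjusted p = 0.0469). The thymus form Psmb11 lay between 1.63 and 18.7.

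The 6 ATPases of the 19S base use ATP to unfold the substrate and open the gate of the core. Their median log2 fold change was -0.36, the lowest of any subcomplex with more than 1 tested gene, with 4 below and 2 above 0. Psmc1 (GRCm38 chromosome 12, 100110154 to 100123405, forward strand) was at 3455, 2059, 2282 and 3501 in +/+ livers and at 1091, 1682, 3067 and 1159 in S74N/+ livers. Thus 3 of 4 S74N/+ livers were below every +/+ liver, and S74N/+ 3 was above 2 of the +/+ livers. The means were 2824 ± 760.4 and 1749.6 ± 917 (SD, n = 4 each), and the log2 fold change was -0.78 (SE 0.32). The unadjusted limma p was 0.0279 and the adjusted p 0.846, and the exact two-sided permutation p was 0.114. Among 3-month-old mice alone, 3 against 2, it was -0.90 (limma adjusted p = 0.841).

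Psmc5 was at 158, 85.1, 119 and 94.4 in +/+ livers and at 55.1, 79.1, 116 and 66.9 in S74N/+ livers, with a log2 fold change of -0.53 (SE 0.29). As with Psmc1, only S74N/+ 3 reached into the +/+ range. Psmc3, chosen after its values were known, was at 1068, 730.4, 805 and 1183 in +/+ livers and at 428, 689.7, 1140.0 and 531 in S74N/+ livers, a log2 fold change of -0.51 (SE 0.29). Psmc6 went the other way, at 145, 141, 122 and 102 against 178, 134, 154 and 237, with a log2 fold change of 0.44 (SE 0.24). Here 3 S74N/+ livers were above every +/+ liver and S74N/+ 2 was not. None of these 3 genes passed an unadjusted p of 0.05 by limma. Summed over the 6 ATPases, the level was 4694 ± 997 in +/+ and 3369 ± 1182 in S74N/+ livers (SD, n = 4 each). Psmc1 was the largest term of the sum in every liver, and the sums overlapped, with 5059 in S74N/+ 3.

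The other subunits of the base bind ubiquitin chains, the shuttles that carry them or further receptors. All 3 had a log2 fold change below 0, none with an unadjusted p under 0.05. Psmd4, a ubiquitin receptor, was at 2036, 1761, 1449 and 2941 in +/+ livers and at 1081, 1931, 2423 and 1133 in S74N/+ livers. The lowest 2 livers were S74N/+ 1 and 4, but S74N/+ 3 was above 3 of the +/+ livers, and the log2 fold change was -0.35 (SE 0.29). Psmd1 was at 618 ± 150.2 in +/+ and 516 ± 107 in S74N/+ livers, and Psmd2 at 629.9 ± 97.8 and 625 ± 105 (SD, n = 4 each). In log2 terms the differences were -0.25 (SE 0.23), and -0.01 (SE 0.20).

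The lid removes the ubiquitin chain. Of its 8 genes 3 were above and 5 below 0, with a median of -0.03. Psmd14, the deubiquitinase of the lid, was at 102, 88.8, 74.97 and 72.9 in +/+ livers and at 92.7, 66.7, 56.8 and 154 in S74N/+ livers. S74N/+ 4 was the highest and S74N/+ 3 the lowest, and the log2 fold change was 0.03 (SE 0.31). Its partner Psmd7, chosen after its values were known, was at 748, 692, 679 and 749 in +/+ livers and 675, 707, 713 and 705 in S74N/+ livers. It was the steadiest of the members, within 1.11-fold over the 8 livers. Psmd3, a scaffold of the lid, was at 351, 664, 376 and 185 in +/+ livers and at 659, 413, 205 and 771 in S74N/+ livers. Its highest liver was S74N/+ 4 and its lowest +/+ 4, and the log2 fold change was 0.35 (SE 0.42). Psmd13 was at 848 ± 284 in +/+ and 646 ± 136 in S74N/+ livers (SD, n = 4 each), which gives a log2 fold change of -0.34 (SE 0.27). The remaining lid genes, Psmd6, Psmd8, Psmd11 and Psmd12, had log2 fold changes between -0.18 and 0.12.

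Assembly of the core needs the chaperones Psmg1 to Psmg4, which work as the pairs Psmg1 with Psmg2 and Psmg3 with Psmg4. All were low, and 3 of 4 had a positive log2 fold change, with a median of 0.17. Psmg1 was at 21.4, 20.6, 59.4 and 16.8 in +/+ livers and at 68.9, 20.4, 3.34 and 52.2 in S74N/+ livers. The value in S74N/+ 3 rests on 3 reads, which makes it uncertain on the log scale, and the log2 fold change was -0.15 (SE 0.74). Psmg2 was at 13.1, 22.4, 7.07 and 5.61 in +/+ livers and at 34.0, 6.22, 6.69 and 39.97 in S74N/+ livers, on 5 to 49 reads per liver. Both were high in S74N/+ 1 and 4, and the log2 fold change of Psmg2 was 0.54 (SE 0.69). Psmg3 was at 59.7, 103, 82.0 and 49.5 in +/+ livers and at 149, 59.5, 42.3 and 108 in S74N/+ livers, again highest in S74N/+ 1 and 4. Its log2 fold change was 0.17 (SE 0.38). Psmg4 was at 59.3 ± 19.7 in +/+ and 64.9 ± 13.7 in S74N/+ livers (SD, n = 4 each). The chaperones of the 19S base, Psmd5, Psmd9 and Psmd10, had log2 fold changes of 0.15 (SE 0.38), -0.04 (SE 0.24) and -0.01 (SE 0.26). Psmd10, also known as gankyrin, was at 67.4 ± 13.4 in +/+ and 66.0 ± 8.07 in S74N/+ livers (SD, n = 4 each).

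Alternative activators cap the core in place of the 19S particle. Psme1 and Psme2 together form the interferon-inducible PA28 ring. Psme1 was at 1107, 814, 979 and 817 in +/+ livers and at 748, 985, 850.3 and 809 in S74N/+ livers. Its partner Psme2 was at 29.8, 45.8, 80.6 and 11.2 in +/+ livers and at 111, 28.4, 21.2 and 147 in S74N/+ livers. Psme1 stayed within 1.48-fold over the livers and Psme2 spanned 13.1-fold, although both proteins build a single ring. The log2 fold changes were -0.13 (SE 0.19) for Psme1 and 0.73 (SE 0.66) for Psme2 (limma adjusted p = 0.892 and 0.851). The last 300 bases of the Psme2 transcript shared 69.7% of their 40-base words with its copy Psme2b, which had 2 to 16 reads per liver beside 12 to 180 for Psme2, so the split of reads between them is uncertain. The nuclear activator Psme3 was at 173 ± 34.2 in +/+ and 161 ± 48.7 in S74N/+ livers, and Psme4, the large nuclear activator PA200, at 486 ± 99.6 and 453 ± 65.7 (SD, n = 4 each). Psmf1, which inhibits the core in vitro, was at 165 ± 38.9 and 145 ± 41.4 (SD, n = 4 each), which gives a log2 fold change of -0.20 (SE 0.26).

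Several members varied widely between livers of the same genotype. The pattern of livers was chosen after values were seen, and is given as a description. Psma2, Psma5 and Psmb2 were lowest in +/+ 1, +/+ 4 and S74N/+ 3 and highest in S74N/+ 1 and 4. Psmc1, Psmc3 and Psmd4 had the reverse order, highest in the first 3 livers and lowest in the other 2. The first order was shared by 3 of 43 members (6.98%) and 4.96% of all tested genes, and the reverse by 3 members (6.98%) and 3.1% of all tested genes. Both shares were above the background but rest on 3 members each, and the difference was not tested. Counting the first 3 livers alone, Psmb3, Psmc2 and Psmd3 were also lowest there, which makes 6 members against 9.25% of all tested genes, and Psmb6 and Psmd7 were also highest there, which makes 5 members against 7.73%. The first principal component of the tested genes outside the list, which held 39.8% of the variance, ordered the livers as +/+ 4, S74N/+ 3, +/+ 1, +/+ 2, S74N/+ 2, +/+ 3, S74N/+ 1 and S74N/+ 4. Thus the 3 livers stood at one end of it and the 2 at the other. Of the 3, +/+ 4 and S74N/+ 3 came from the only 2.5-month-old mice, and +/+ 1 was 3 months old. Of the 2, S74N/+ 4 came from the only 2-month-old mouse, and S74N/+ 1 was 3 months old. The part of age in the pattern was not tested. RNA quality is not given for single livers, and its part in the pattern was not tested. The summed hepatocyte markers were 256196, 221403 and 240896 in the first 3 livers, 294545 and 440645 in the other 2, and 235121 in +/+ 2, 326343 in +/+ 3 and 320769.5 in S74N/+ 2. They did not follow the same order throughout, and their part was not tested either. Without S74N/+ 3, 6 members had an unadjusted p under 0.05 by limma, namely Psma2, Psma5 and Psmb2 (higher) and Psmc1, Psmc3 and Psmc5 (lower), but so did 15.1% of all tested genes, and none of the 6 passed adjustment.

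**Figure D3:**
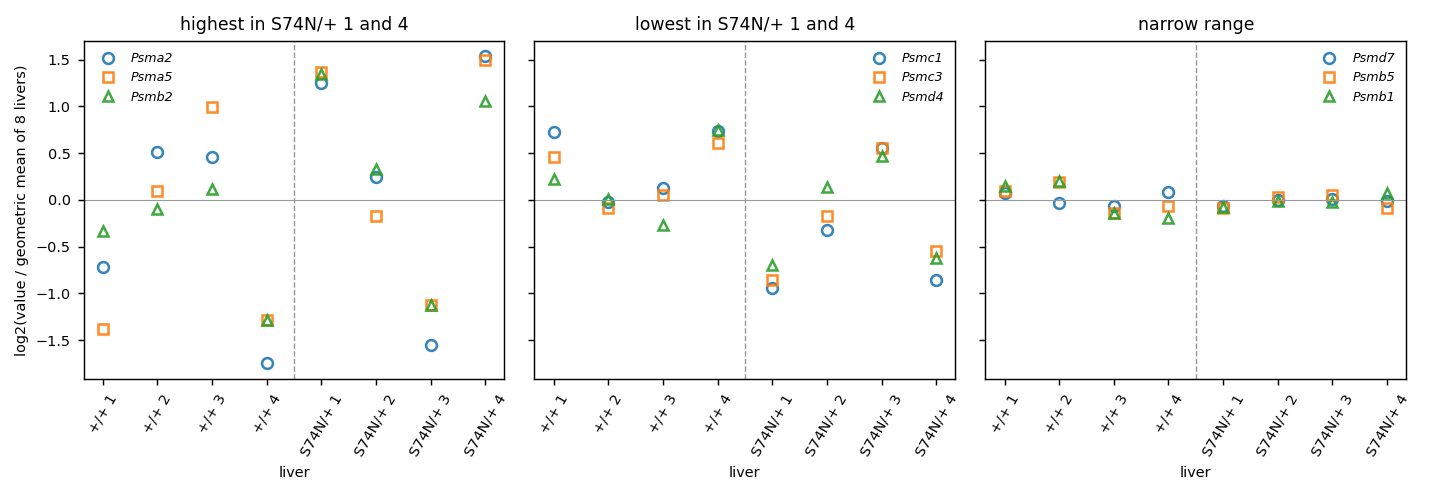
Log2 of the normalized count over the geometric mean of the 8 livers (vertical) in each liver (horizontal), for 3 sets of 3 genes chosen after their values were seen. Dashed lines part the +/+ from the S74N/+ livers. Psma2, Psma5 and Psmb2 are high in S74N/+ 1 and 4, Psmc1, Psmc3 and Psmd4 are low there, and Psmd7, Psmb5 and Psmb1 stay close to 0.

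Most members were steadier than that. The highest liver exceeded the lowest by more than 2-fold on the log2(value + 1) scale in 22 of 43 members (51.2%) and 71.9% of all tested genes, by more than 4-fold in 7 (16.3%) and 24.3%, and by more than 8-fold in 3 (6.98%) and 7.99%. Since the range also depends on the level, the comparison was repeated for genes with a mean of at least 100. Among these, the median log2 range was 0.88 for 32 members and 1.01 for all 4884 genes. Psmd7 and Psmb5 stood at the steady end, with 2 and 32 of the 4884 genes, themselves included, having a range as small or smaller. Psma2 stood at the other end, with 97 of the 4884 genes, itself included, having a range as large or larger. Within the β ring Psmb5 spanned 1.26-fold at a mean of 795, and Psmb2 spanned 6.16-fold at the lower mean of 40.6.

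**Figure D4:**
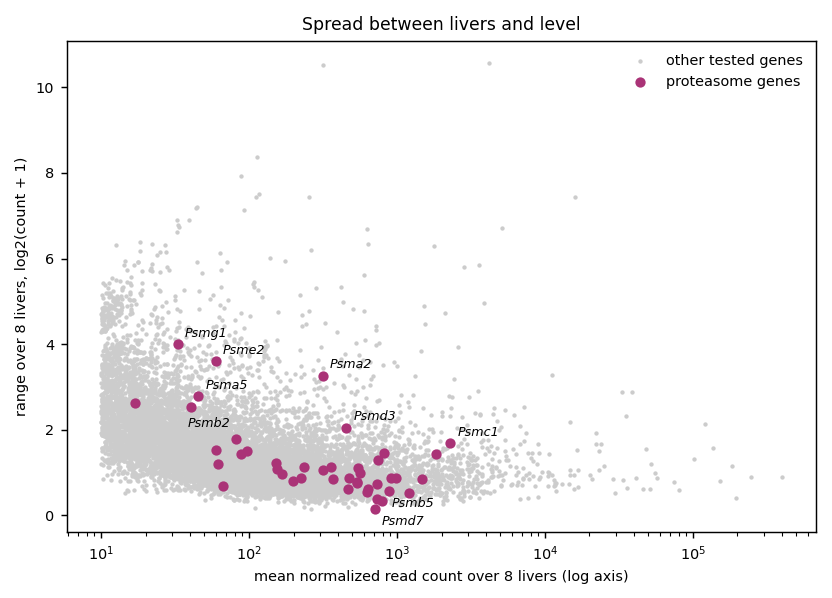
Range over the 8 livers, as the difference of log2(normalized count + 1) between the highest and the lowest liver (vertical), against the mean normalized count (horizontal, log axis). Each point is a tested gene, with the 43 proteasome genes in purple. Psmd7 and Psmb5 lie at the lower edge of the cloud for their level, and Psma2, Psme2 and Psmg1 toward its upper edge.

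Reads from the 3′ end can be shared with pseudogenes. Over the last 300 bases, 33 of the 46 members shared no 40-base word with another annotated gene (GENCODE M21), 13 shared some and 9 shared at least 25%. The share was 63.2% for Psma5 (with the pseudogene Gm12989), 60.9% for Psmb3 (Gm4950), 56.7% for Psmb5 (Gm3375), 43.3% for Psmd2 (Gm5422) and 73.6% for Psmd1, whose exons overlap Gm21972 on the same strand. Counts of these genes depend on how such reads were assigned. Psma2, Psmb2, Psmc3, Psmd4 and Psmd7 shared none, and Psmc1 shared 4.598%.

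The catalytic subunits were set against the inducible subunits that replace them. Inducible Psmb9 was at 30.8, 31.8, 56.6 and 29.9 in +/+ livers and at 100.1, 62.2, 36.8 and 109 in S74N/+ livers. It was above every +/+ liver in 3 of 4 S74N/+ livers, with a log2 fold change of 0.96 (SE 0.37) and an unadjusted limma p of 0.0229 (adjusted p = 0.846, exact permutation p = 0.0571). Psmb8 was at 106 ± 55.3 in +/+ and 119 ± 30.5 in S74N/+ livers, and Psmb10 at 176 ± 46.7 and 158 ± 46.4 (SD, n = 4 each). As log2 ratios, Psmb9 over Psmb6 was -5.16, -4.79, -3.69 and -5.04 in +/+ livers and -2.90, -3.82, -5.02 and -2.60 in S74N/+ livers. The mean difference was 1.09, and the groups overlapped through S74N/+ 3 and +/+ 3 (exact two-sided permutation p = 0.171, 0.514 adjusted over the 3 pairs). The difference was 0.32 for Psmb8 over Psmb5 (exact p = 0.486) and -0.31 for Psmb10 over Psmb7 (exact p = 0.514), both 0.514 after adjustment. The smallest p that 4 against 4 livers allow is 0.0286. As the mean of the 4 livers' percentages, the inducible subunit stood at 13.4% of its counterpart in +/+ and 15.3% in S74N/+ livers for Psmb8, at 4.197% and 9.91% for Psmb9, and at 53.9% and 42.6% for Psmb10. The percentage for Psmb8 also depends on how the reads that Psmb5 can share with Gm3375 were assigned. Kupffer cell markers summed to 2925 to 4715 in +/+ and 2816 to 4877 in S74N/+ livers for 9 markers, none at 0. The log2 ratio of the mean sums, S74N/+ over +/+, was -0.05. Of these 9 markers, 6 had a positive and 3 a negative log2 fold change, from -0.38 to 1.82 with a median of 0.16. An unadjusted limma p under 0.05 was found for 2 (22.2%, against 5.17% of all tested genes), both higher in S74N/+ livers. The share was higher among sinusoidal endothelial markers, at 37.5% of 8, with 2 higher and 1 lower in S74N/+ livers. Marco, a scavenger receptor, was at 20.5, 22.4, 25.5 and 20.6 in +/+ livers and at 79.0, 114, 37.9 and 125 in S74N/+ livers, with no overlap. Of the 9 Kupffer cell markers only Marco had groups that did not overlap, against 2.94% of all tested genes. Adgre1 was at 34.5, 49.6, 67.9 and 55.1 in +/+ livers and at 57.8, 136, 59.1 and 131 in S74N/+ livers. Clec4f and Csf1r, of the same list, were lower in S74N/+ 1 and 4 than in all other livers. Summed over 6 markers of B or plasma cells, none at 0, the level was 82.3 to 142 in +/+ and 190.1 to 279.8 in S74N/+ livers, again with no overlap, and Igkc, an immunoglobulin light chain, was the largest term in every liver. Markers of T or NK cells summed to 22.4 to 59.8 in +/+ and 17.8 to 46.5 in S74N/+ livers. Those of neutrophils or monocytes summed to 63.6 to 158 and 72.4 to 190. Both of these sums overlapped between groups, and some of their markers were at 0 in a liver. The part of these cells in the level of Psmb9 and in the ratios was not tested.

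**Figure D5:**
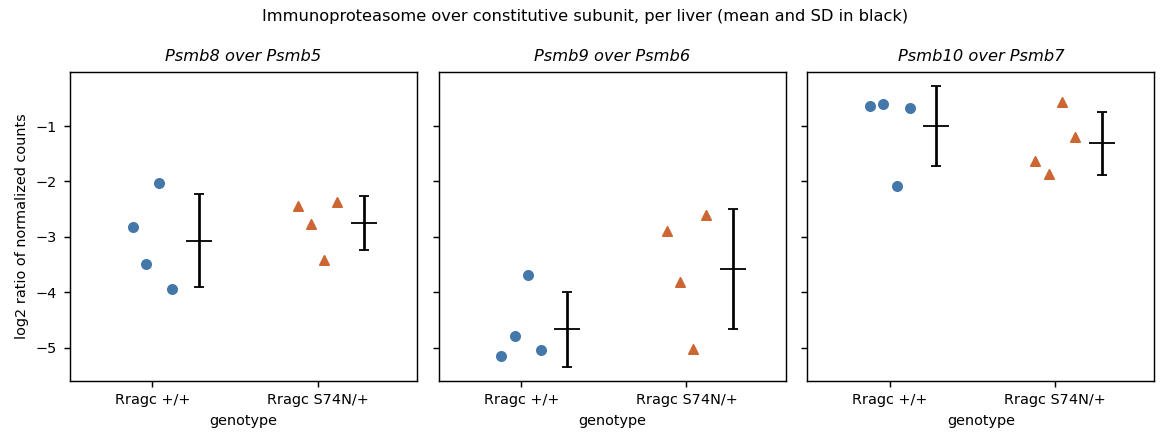
Log2 ratio of each inducible subunit to the constitutive subunit it replaces (vertical), per liver. Blue circles are +/+ livers, orange triangles S74N/+ livers, and black bars the mean and 1 SD of 4 livers. Psmb9 over Psmb6 has 3 of 4 S74N/+ livers above most +/+ livers, and the groups overlap in all 3 panels.

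Partners of the proteasome outside the name rule were looked at in the same way. Of 16 tested partner genes none had an unadjusted limma p under 0.05, against 5.17% of all tested genes. Their log2 fold changes were positive for 6 and negative for 10, with a median of -0.04, and positive for 51.3% of all tested genes. Pomp, the chaperone that guides β ring assembly, was at 563, 781, 378 and 313 in +/+ livers and 593, 430.2, 293 and 656 in S74N/+ livers, a log2 fold change of -0.02 (SE 0.32). Among 9 tested ubiquitin genes and segregase subunits none passed, with a median of -0.11. Among 7 factors that control proteasome genes none passed, with a median of -0.15. At a share of 5.17%, lists this short would hold few such genes, so their absence says little. Nfe2l1, which encodes Nrf1, was at 351, 269, 344 and 291 in +/+ livers and at 207, 228, 364 and 193 in S74N/+ livers. It was lower than every +/+ liver in 3 of 4 S74N/+ livers, S74N/+ 3 being the highest of all 8. The log2 fold change was -0.38 (SE 0.24, limma adjusted p = 0.846).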

How the data were processed

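Liver RNA libraries were made by the authors with a 3′ mRNA kit (QuantSeq FWD) and sequenced on a NextSeq 550. Per the labels and methods, reads were checked with FastQC 0.11.7, aligned to GRCm38 with TopHat2 2.0.10, Bowtie 1.0.0 and SAMtools 0.1.19, counted by strand with HTSeq 0.6.1 against GENCODE vM20, and scaled with DESeq. The deposited signal is a normalized count per gene and liver. Every value (100%) was a whole multiple of the smallest step of its liver (tolerance 1e-06), so whole reads were recovered, with size factors from 0.707 to 1.23. Reads carry no stated molecular identifiers, so their number can overstate the number of separate molecules. Counting error is only a part of the spread between livers.

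Differences were tested with limma 3.58.1 in R 4.3.3 (empirical Bayes with trend) on log2(normalized count + 1), with genotype alone in the model. Genes averaging under 10 were left out, and p-values were adjusted over all tested genes by the Benjamini-Hochberg method. Fold changes on this scale understate those of low genes. edgeR 4.0.16, which called 1 gene, and DESeq2 1.42.0, which called 10, were run on the recovered reads. Ratios and single genes were tested by exact permutation over 70 labellings. Other alternatives were pseudocounts of 0.1 and 5, a minimum mean of 50 or none, TMM and upper-quartile scaling, no trend, age as a covariate or factor, 3-month-old mice alone, and each liver left out in turn. Scripts were tested on simulated counts with larger changes than those of the members and less spread between livers. That checks the code and not its power in these data. Each library is labelled as its own sample, and p-values measure the spread between these samples.

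Members and lists were chosen with earlier results of these data known. Genes named are the catalytic, activator, inhibitor and assembly genes, the highest and lowest members of each subcomplex by mean and by log2 fold change, members with an unadjusted p under 0.05, the inducible subunits, Pomp, Nfe2l1, and genes of the related lists with an unadjusted p under 0.05. Any other gene was chosen after its values were seen. Psmc3ip was not analysed here, and 1 marker of B or plasma cells is not reported here. Transcript ends and coordinates are from GENCODE M21, a release close to that of the authors, and promoters from RefSeq.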

Additional observations from a re-analysis of the deposited data

Results flagged for a closer look

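In 5 of 100 groups of 4 livers, 1 liver lay far from the other 3, and chance alone gives about 5. On the log2(normalized count + 1) scale, Psma4 was at 8.70 in S74N/+ 1 against 9.10 to 9.16 in the other S74N/+ livers. Psmb4 was at 9.83 in S74N/+ 3 against 10.09 to 10.13, and Psmb7 at 8.32 in S74N/+ 3 against 8.65 to 8.70. Inducible Psmb9 was at 5.85 in +/+ 3 against 4.95 to 5.04 in the other +/+ livers. The log2 ratio of Psmb10 over Psmb7 was -2.09 in +/+ 3 against -0.68 to -0.61.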

How the results depend on the processing

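No paired analysis was possible because numbers of replicates only name the livers and tie no mouse to another. Over all genes, 1 gene passed the adjusted threshold as reported, 0 did without the limma trend, with age as a covariate or in 3-month-old mice, 3 with age as a factor, 10 with DESeq2, and 0 to 2 when each liver was left out. No member passed in any alternative run. Members at an unadjusted p under 0.05 numbered 1 as reported, 0 without the trend or with edgeR, and 2 with DESeq2 or age as a factor. In 3-month-old mice there were 5 (Psmb2, Psmc1, Psmc3, Psmc5 and Psmd1, 11.6% of members against 5.74% of all genes). When each liver was left out there were 0 to 6 (2.82% to 15.1% of all genes). The 6 came without S74N/+ 3, and Psmc1 was lost without +/+ 1, +/+ 4, S74N/+ 1 or S74N/+ 4. The median log2 fold change of the members ran from -0.06 to 0.01 when livers were left out singly.
Of 35 named genes, 19 kept their direction in every alternative run, which were 12 other settings (11 for genes with a mean under 50) and 8 fits without a liver, and 16 did not in at least 1 of them. No named gene passed an adjusted p of 0.05 in any. Among log2 fold changes that changed sign, those with age as a covariate were 0.052 for Psme3, 0.0043 for Psmd9, -0.093 for Psmd14 and 0.027 for Pomp. With age as a factor they were 0.012 for Psmd9 and -0.21 for Psmd14. In 3-month-old mice they were 0.12 for Psme3, 0.33 for Psmg1, 0.00068 for Psmd10, 0.014 for Psmf1 and -0.16 for Psmd14. For Psmg1 they were 0.34 with edgeR and 0.32 with DESeq2. Without a liver in turn, the ranges that crossed 0 were -0.22 to 0.22 for Pomp, -0.25 to 0.033 for Psma7, -0.36 to 0.0013 for Psmb10, -0.10 to 0.014 for Psmb5, -0.041 to 0.57 for Psmb8, -0.16 to 0.057 for Psmd10, -0.24 to 0.23 for Psmd14, -0.10 to 0.075 for Psmd2, -0.10 to 0.40 for Psmd5, -0.18 to 0.084 for Psmd9, -0.29 to 0.026 for Psme3, -0.18 to 0.013 for Psme4, -0.66 to 0.68 for Psmg1, -0.12 to 0.47 for Psmg3 and -0.056 to 0.34 for Psmg4. Among the other named genes with a log2 fold change of at least 0.2 in size, leaving out livers moved these by over 1.5 times: Psma5 (0.40 to 1.25), Psmb2 (0.48 to 1.27), Psmb4 (0.072 to 0.36), Psmc6 (0.29 to 0.56), Psmd1 (-0.34 to -0.10), Psmd13 (-0.60 to -0.17), Psmd3 (0.037 to 0.73), Psmd4 (-0.57 to -0.16), Psme2 (0.23 to 1.18), Psmf1 (-0.37 to -0.045), Psmg2 (0.12 to 0.95) and Nfe2l1 (-0.58 to -0.27). In 3-month-old mice the values that moved as far were -0.59 for Psmd1, -0.81 for Psmc5, 0.19 for Psmc6, 0.37 for Psmb4, 0.23 for Psmd3, 0.23 for Psme2, 0.198 for Psmg2, 0.10 for Psmb8 and 0.44 for Igtp. With age as a factor they were 0.21 for Psmd3, 0.41 for Psme2, 0.20 for Psmg2 and -0.11 for Psmf1, and with age as a covariate -0.060 for Psmf1. Psmg2 was at 0.84 with edgeR and 0.855 with DESeq2, and Psmb8 at 0.18 with both. The causes were not tested. Depth limits Psmg1 and Psmg2 most, with 3 to 75 and 5 to 49 reads per liver.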

Other observations

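Genes of the interferon γ response and of antigen processing, several of which are induced together with the inducible proteasome subunits, were looked at beside the members. All 14 were tested, with 10 positive and 4 negative log2 fold changes and a median of 0.39, and 2 of the 14 had an unadjusted limma p under 0.05, against 5.17% of all tested genes. Tap2, a subunit of the peptide transporter of the endoplasmic reticulum, was at 1.86, 3.74, 7.07 and 0.934 in +/+ livers and at 47.7, 9.78, 3.34 and 52.2 in S74N/+ livers, with 1 to 64 reads. It was high in S74N/+ 1 and 4, and every other liver was under 10. Tap2 thus reached the minimum mean of 10 only through these S74N/+ livers. Neither its p nor its place among the 2 of 14 is therefore support for a difference. The log2 fold change was 2.29 (SE 0.88, limma unadjusted p = 0.0219, adjusted p = 0.846). At so few reads it depends on the setting, and it ran from 1.61 with a pseudocount of 5 to 3.13 with DESeq2. Igtp, an interferon-inducible GTPase, was at 95.1, 80.4, 146 and 114 in +/+ livers and at 112, 179, 170.5 and 250.4 in S74N/+ livers. Here 3 of 4 S74N/+ livers were above every +/+ liver, and the log2 fold change was 0.68 (SE 0.28, limma unadjusted p = 0.0308, adjusted p = 0.846).

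Adrm1, a ubiquitin receptor of the 19S base outside the name rule, was chosen after its values were seen. It was at 447, 359, 373 and 469.9 in +/+ livers and at 217, 305, 486 and 175 in S74N/+ livers. S74N/+ 1 and 4 were the lowest of the 8 livers, as for Psmc1 and Psmd4. For Adrm1, 3 of 4 S74N/+ livers were below every +/+ liver. The log2 fold change was -0.58 (SE 0.29, limma unadjusted p = 0.0640, adjusted p = 0.846).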
